A study of Caenorhabditis elegans with 27 samples.

Results

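The C-type lectin genes of Caenorhabditis elegans, named clec and a number, were followed through adult life and on a diet with black rice extract. Members were taken by symbol: every gene of the deposited table whose symbol is clec followed by a number, leaving out clec-67 and clec-85. This gave 238 of the 46934 genes in the table, all of them protein coding. They carry 235 distinct symbols, because clec-15, clec-209 and clec-249 each stand on 2 gene IDs. Of the 238, 174 had counts enough to test and 64 did not. The 64 untested genes had means between 0.00106 and 0.0371 CPM (counts per 1 M of the library) over the libraries, and none of them was without a count in every library.

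C-type lectin-like proteins share a compact protein fold that in some members binds sugars and in many others has no known ligand. Nematodes carry an unusually large family of them, most with a signal peptide, so the proteins are thought to be secreted or displayed at the cell surface. Many clec transcripts are made in the intestine and change when worms feed on harmful bacteria, and the genes are widely used as readouts of innate immunity.

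The worms were of the wild-type strain N2 in every group, and RNA came from whole bodies, so no tissue was separated. Synchronized animals were placed on their diet at the L4 larval stage and kept at 20 °C. One arm ate Escherichia coli OP50, the standard laboratory food, and was sampled at days 1, 6, 11, 15 and 17. The other ate OP50 on plates with black rice extract (BRE) and was sampled at days 6, 11, 15 and 17. Each of these 9 groups had 3 libraries, 27 in all, each from about 1000 worms. Concentrations of 0, 0.42, 1.04 and 1.67 mg/mL of extract are named in the labels, but not which one the sequenced BRE worms received. In such bulk samples, fewer cells of a type and less RNA per cell cannot be told apart.

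Libraries held between 101.61 and 164.34 M counts. The filter on low counts left 19290 genes. Levels below are CPM of the normalized library total, and differences are log2 fold changes with a standard error (SE). A gene is called when its Benjamini-Hochberg adjusted p in edgeR's quasi-likelihood test, over all 19290 genes, is under 0.05. Markers fixed by cell type moved with age as well. Of 10 intestine markers 9 were tested, none was at 0 in any library, and at day 17 against day 1 none of the 9 rose and 7 fell, with a median log2 difference of -2.35. Their summed level was 4217 to 4851 CPM at day 1, 1373 to 1550 at day 6, 1046 to 1338 at day 11, 846.4 to 1032 at day 15 and 633.3 to 890.5 at day 17. Of 10 body wall muscle markers 9 fell and none rose, and their sum went from 3649 to 4992 CPM at day 1 to 340.6 to 624.3 CPM at day 17. Of 9 embryo markers 5 fell and none rose. Their sum was 277.3 to 309.4 CPM at day 1, 349.1 to 367.4 at day 6 and 146.4 to 178.6 at day 17, so it too was highest at day 6, and at most 1 of them was at 0 in a library. Of 9 oocyte markers 7 fell and 2 rose, with sums of 13100 to 14570 CPM at day 1 and 10060 to 16220 CPM at day 17. No muscle or oocyte marker was at 0. The part of the intestine, muscle, embryos or oocytes in the lectin results with age was not tested.

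A handful of members made up most of the lectin transcript. Over the 27 libraries clec-87 held 42.9% of the lectin CPM, clec-88 held 14.4%, clec-63 held 7.29%, clec-91 held 7.05% and clec-266 held 6.41%, which together came to 78%. The order shifted with age: clec-63 ranked next after clec-88 at day 1 (12.6% of the OP50 group's lectin CPM) and day 6 (9.94%), and from day 11 on clec-266 took that rank on both diets, with 8.25%, 10.5% and 10% on OP50 at days 11, 15 and 17. Per kilobase of exon the order changed: the mean level was 1597 CPM per kb for clec-87, 423.3 for clec-88, 296 for clec-91, 200.9 for clec-63 and 122.4 for clec-146. The next in that order were clec-266 at 75.5 CPM per kb, clec-150 at 64.48 and clec-173 at 57.45. At the other end, the median member had a mean of 0.118 CPM. Most of the family was therefore measured at very low levels, and 63 members had a mean of at least 1 CPM, 29 of these at least 10 CPM.

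Summed over all 238 members, the lectin transcript was highest at day 6 and lowest at day 17 on OP50. The sum was 3894 to 4370 CPM at day 1 and 4713 to 5441 CPM at day 6. It was 3542 to 4036 CPM at day 11, 2628 to 2882 at day 15 and 2460 to 2628 at day 17. Libraries of day 6 lay above all others of the OP50 arm, and those of days 15 and 17 lay below all of days 1, 6 and 11. Without the 5 most abundant members the sum kept this shape, with 1001 to 1022 CPM at day 1, 1137 to 1156 at day 6 and 459.4 to 475.7 at day 17. On the plain library total, with no scaling between libraries, the mean sum was 3341 CPM at day 1, 4473 at day 6 and 2885 at day 17, so the fall from day 1 was smaller on that scale. There day 11, at 3783 CPM, stood above day 1, the reverse of the scaled means of 3747 and 4131 CPM.

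**Figure D1:**
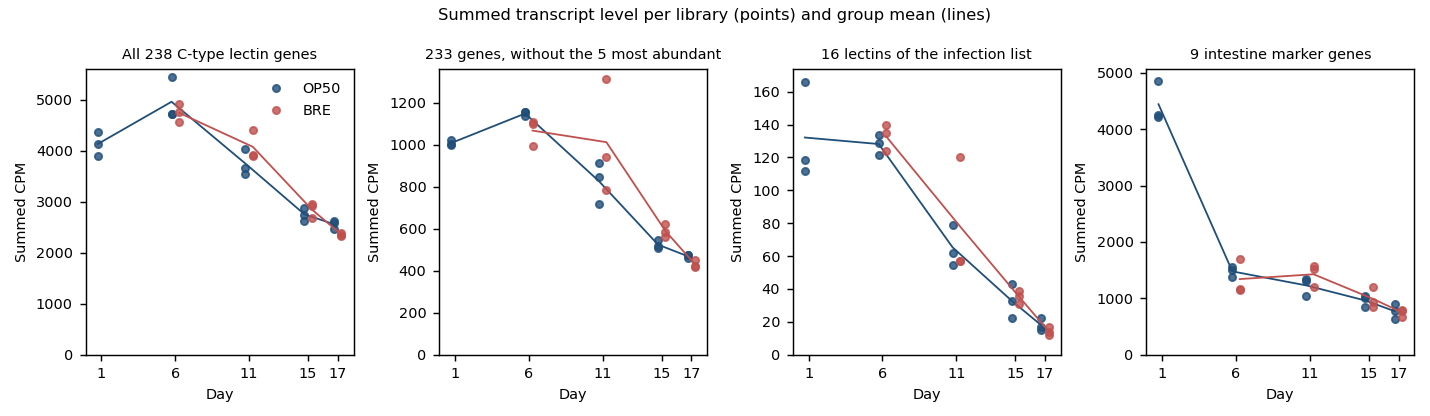
Summed level (y axis, CPM) by day (x axis) for all 238 C-type lectin genes, the 233 without the 5 most abundant, the 16 lectins of the infection list and 9 intestine markers. Points are libraries and lines join group means, blue for OP50 and red for BRE. The lectin sums peak at day 6 or hold to day 6 and fall to day 17, while the intestine markers drop between day 1 (4217 to 4851 CPM) and day 6 (1373 to 1550 CPM).

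Most tested lectins changed with age, and the abundant ones mainly fell. Over the 5 OP50 groups together, 131 of the 174 tested members (75.3%) differed, against 66.2% of all genes tested. Against day 1, 62 members were called at day 6, where 32.8% of all genes were called, with 36 higher and 26 lower (13.9% and 18.9% of all genes). At day 11 it was 75 members beside 35.6% of all genes, with 47 higher and 28 lower (19.2% and 16.4%). At day 15 it was 104 members beside 47.1% of all genes, with 54 higher and 50 lower (26% and 21.1%). At day 17 it was 109 members, or 62.6%, beside 53.9% of all genes, with 49 higher and 60 lower (29.2% and 24.7%). These 4 comparisons share the day 1 libraries. A member that passed the filter through a single group where it was high had to differ, so the counts over the 174 describe the tested members alone.

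The direction of change went with the level of the gene. Among the 63 members with a mean of at least 1 CPM, 45 fell and 9 rose at day 17 against day 1, where 35% of all genes at that level fell and 21.3% rose. Their median log2 difference was -1.64, against -0.17 for all genes tested at that level. At day 15, 40 of the 63 fell and 10 rose, beside 29.3% and 19.1% of all genes at that level. The earlier days were more even: 16 fell and 17 rose at day 6 (20.8% and 18%), and 20 fell and 15 rose at day 11 (21.4% and 17.5%). Without the 4 libraries richest in sperm transcripts, a choice made after seeing the data, 44 of the 63 fell and 10 rose at day 17. Leaving out the scaling between libraries would raise each log2 difference from day 1 by 0.48 at day 17 and by 0.43 at day 15, and at day 17, 45 of the 63 would then lie below 0, where all but 12 do with scaling.

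Members under 1 CPM went the other way, as did other weakly expressed genes. Of these 111, 40 rose and 15 fell at day 17, beside 41% and 9.38% of all genes tested at that level. At day 11, 32 rose and 8 fell, beside 21.7% and 9.11%. At day 15, 44 rose and 10 fell, beside 36.4% and 8.87%. At day 6, 19 rose and 10 fell, beside 7.68% and 16.1%, so there the weak lectins and the other weak genes leaned in opposite directions.

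**Figure D2:**
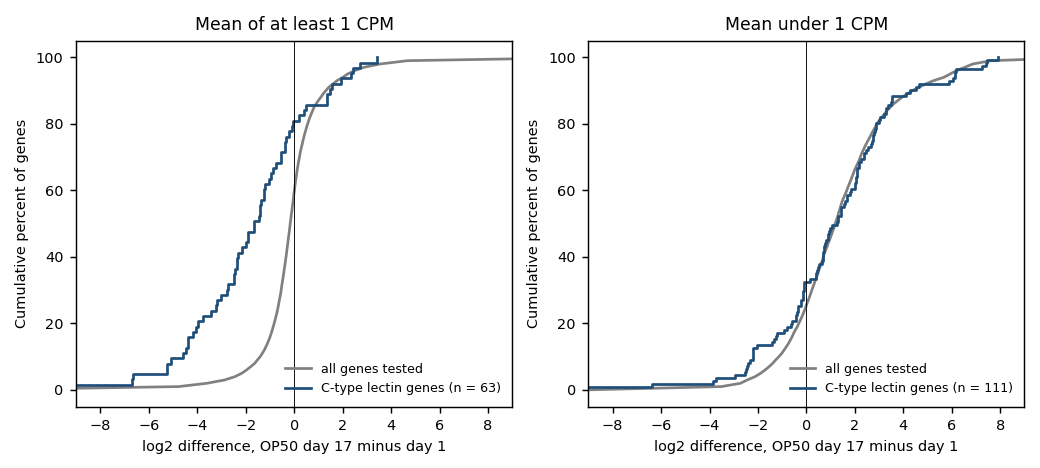
Cumulative percent of genes (y axis) against the log2 difference of OP50 day 17 minus day 1 (x axis), for members with a mean of at least 1 CPM (left, 63 genes) and under 1 CPM (right, 111 genes), with all genes tested at the same level in grey. In the left panel the lectin curve lies to the left of the grey curve over most of its range, with a median of -1.64 against -0.17, and in the right panel the curves nearly coincide.

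Day 1 or day 6 was the high point for most abundant lectins. Of the 63, 31 had their highest OP50 mean at day 1 (49.2%, against 35.2% of all genes at that level) and 21 at day 6 (33.3%, against 32.8%). A peak at day 11 was found for clec-5, clec-56, clec-80, clec-169, clec-225 and clec-266. Day 15 was the peak of clec-78 and clec-180, and day 17 that of clec-146, clec-147 and clec-264, which is 4.76% of the 63 where 19% of all genes at that level had their highest mean. Over all tested members, 49 were called lower at both day 15 and day 17 (28.2%, against 19.4% of all genes) and 44 higher at both (25.3%, against 24.1%). At all 4 days 17 were lower (9.77%, against 8.33%) and 17 higher (9.77%, against 6.4%). No day was called for 42 (24.1%, against 30.5%), and 12 were higher at one day and lower at another (6.9%, against 3.81%).

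**Figure D3:**
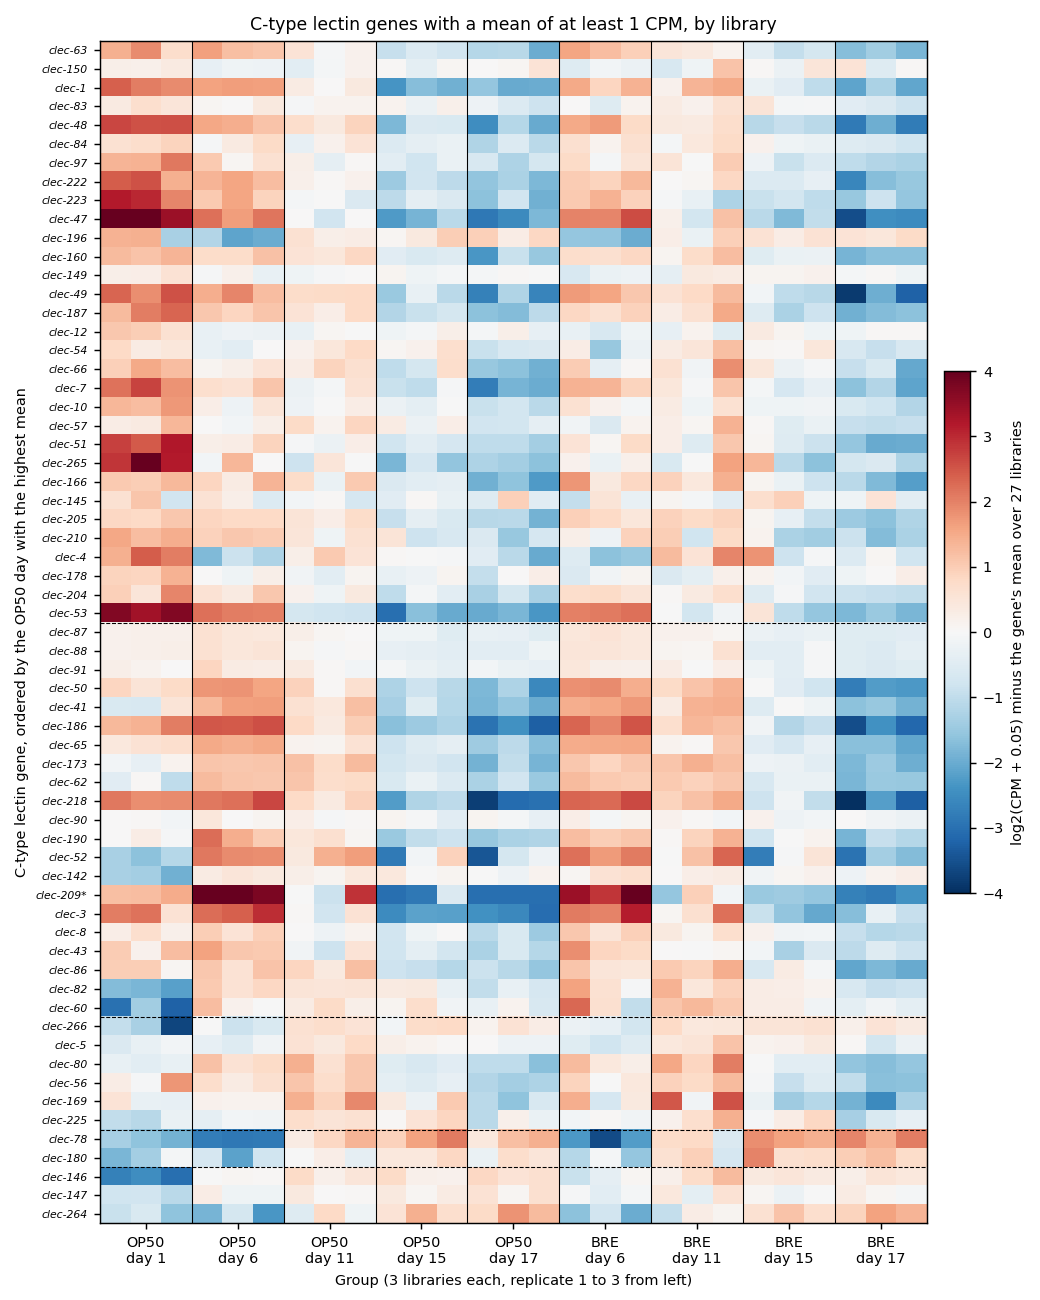
Rows are the 63 C-type lectin genes with a mean of at least 1 CPM, columns the 27 libraries in groups of 3, and colour is log2(CPM + 0.05) minus the gene's own mean, from blue (low) to red (high). Rows are ordered by the OP50 day with the highest mean, and dashed lines part the days. Most of the 31 genes that peak at day 1 and of the 21 that peak at day 6 turn blue towards day 17 on both diets. Not all do, and clec-150 is among the exceptions. The asterisk marks 1 of the 2 gene IDs that share the symbol clec-209.

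Of the dominant lectins, clec-63 fell furthest. This gene lies on chromosome II at 12895638 to 12897446 on the plus strand of WBcel235, within a run of lectin genes. Its level was 520.2, 726.9 and 320.4 CPM in the 3 libraries of day 1 and 611.8, 444.2 and 422.8 CPM at day 6. It was 287.1, 189.2 and 220.2 CPM at day 11, 101.8, 133.0 and 115.4 CPM at day 15, and 87.66, 90.57 and 49.39 CPM at day 17. Days 1 and 6 overlapped, and each later day lay below both. From day 1 to day 17 the log2 difference was -2.78 ± 0.272 (SE), with an adjusted p of 2.02e-08.

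The most abundant lectin changed less. Libraries of day 1 held 1661, 1702 and 1721 CPM of clec-87, those of day 6 held 2274, 2056 and 1993 CPM, and those of day 17 held 1219, 1187 and 1058 CPM. The 3 groups did not overlap. The gene rose by 0.32 at day 6 (adjusted p 0.024) and fell by 0.55 at day 17 (SE 0.105, adjusted p 1.25e-04), both log2 against day 1. It shares 138 exon bases with iars-2 on the other strand, a gene that fell by 1.47, and the sources used here do not say whether counting used the strand. Nearby in size, clec-88 on chromosome II (6365722 to 6367002, plus strand) held 554.5, 566.2 and 587.2 CPM at day 1 and 370.9, 371.6 and 438.6 CPM at day 17. It fell by 0.53 (SE 0.126, adjusted p 0.00119), with no overlap between those days. Without scaling between libraries both day 17 differences would be 0.48 higher, which takes up most of each fall. With a replicate block in edgeR neither fall was called (adjusted p 0.129 for clec-87 and 0.078 for clec-88).

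A further pair of abundant members stood at the edge of the test or outside it. The fall of clec-91 at day 17, -0.37 ± 0.149 with an adjusted p of 0.0401, was not called in any of 12 alternatives, with adjusted p from 0.053 to 0.183, and its sign turns where libraries are left unscaled. For clec-150 the means were 89.37 CPM at day 1 and 86.39 CPM at day 17, with a log2 difference of -0.05 and an adjusted p of 0.909.

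The steepest falls took genes close to 0. In clec-47 (chromosome V, 15175759 to 15176324, plus strand) the 3 libraries held 43.9, 81.7 and 29.7 CPM at day 1 and 12.7, 8.69 and 12 CPM at day 6. They held 2.77, 1.58 and 2.75 CPM at day 11 and 0.327, 0.423 and 0.747 CPM at day 17. No library of a later day reached any of an earlier one among these 4 days, and the log2 difference from day 1 to day 17 was -6.68 ± 0.57 (adjusted p 3.2e-09). In clec-53 the level went from 5.21, 4.14 and 5.21 CPM at day 1 to 0.0504, 0.0634 and 0.0309 CPM at day 17, a log2 difference of -6.64 ± 0.60.

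A gene of the Staphylococcus aureus response, clec-70 (chromosome IV, 3932708 to 3936307, plus strand), had the largest fall by day 6. It held 4.42, 5.94 and 4.06 CPM at day 1 and 0.0698, 0.169 and 0.104 CPM at day 6, a log2 difference of -5.38 with no overlap. At day 11 it held 0.401, 0.327 and 0.669 CPM and at day 17 0.0504, 0.0705 and 0.0494 CPM. The rise from day 6 to day 11 was called (2.01, adjusted p 0.0074), and so was the fall from day 11 to day 15 (-2.88). Day 17 stood at -6.38 ± 0.586 against day 1.

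Other lectins had their highest OP50 mean at day 6 and then fell. For clec-218 (chromosome V, 8307942 to 8310766, plus strand) the libraries held 38.3, 31.9 and 33 CPM at day 1 and 38.5, 40.6 and 56.4 CPM at day 6. They then held 15.2, 11.2 and 16.9 CPM at day 11, 1.83, 3.81 and 4.23 CPM at day 15 and 0.605, 1.01 and 1.06 CPM at day 17. From day 11 on the groups were ordered by day without overlap, and day 17 stood at -5.26 ± 0.42 against day 1 (adjusted p 9.5e-10). For clec-186 (chromosome IV, 12866109 to 12869080, plus strand) day 1 held 47.5, 50.6 and 79.3 CPM, day 6 held 107, 106 and 115 CPM and day 17 held 2.45, 3.59 and 1.96 CPM. It rose by 0.89 at day 6 and stood at -4.47 ± 0.34 at day 17 (adjusted p 4.25e-10). In clec-3 (chromosome II, 3017468 to 3019907, minus strand) day 1 held 2.96, 3.24 and 1.02 CPM and day 17 held 0.084, 0.0705 and 0.037 CPM, a log2 difference of -5.24 ± 0.67.

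A further pair of falls completed the 8 largest at day 17. For clec-265 the level went from 8.47, 21.1 and 10.5 CPM to 0.445, 0.409 and 0.327 CPM, and for clec-7 from 8.95, 12.9 and 6.94 CPM to 0.243, 0.5 and 0.451 CPM. Their log2 differences were -5.08 and -4.58, and in both the groups did not overlap. The 29 members with a mean of at least 10 CPM were listed after their values were seen. Of these, 21 were lower at day 17 (beside 36.4% of all genes at that level), 5 were higher (beside 15.6%) and 3 were not called. Among the lower, clec-48 stood at -4.40, clec-223 at -4.18, clec-1 at -3.97, clec-222 at -3.78, clec-97 at -2.51, clec-50 at -2.50 and clec-56 at -2.15, the last at -1.31 without replicate 3 of day 1. The falls of clec-65 (-1.93), clec-84 (-1.65), clec-41 (-1.64), clec-173 (-1.43), clec-190 (-1.43) and clec-83 (-1.02) were smaller. The call of clec-80 (-0.88) was lost without replicate 3 of day 17 (adjusted p 0.0774). That of clec-62 (-0.74) was lost without replicate 2 of day 1, at -0.39 (adjusted p 0.112), and with the compared groups alone (adjusted p 0.0883). The uncalled were clec-5 (0.20), clec-90 (-0.07) and clec-150.

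Few abundant lectins rose. The clearest was clec-146 (chromosome II, 13590641 to 13593774, minus strand), which held 10.5, 12.2 and 8.41 CPM at day 1 and 68.8, 73.7 and 70.7 CPM at day 6. At day 17 it held 121.8, 101.2 and 108.2 CPM, and no library of day 6 or later came near those of day 1. Its log2 difference at day 17 was 3.41 ± 0.255 (adjusted p 3.48e-10), the largest rise among those whose groups did not overlap and reached 1 CPM. A smaller rise was that of clec-147, from 9.76, 9.99 and 7.95 CPM at day 1 to 25.6, 17.8 and 26.3 CPM at day 17 (1.33 ± 0.215, adjusted p 1.88e-05).

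The abundant clec-266 lies on chromosome X (6617393 to 6622915, minus strand). It held 102.4, 81.29 and 15.49 CPM at day 1, 308.2, 329.1 and 289.8 CPM at day 11 and 219.7, 300.4 and 248.3 CPM at day 17. Day 1 was spread over a wide range but lay below both later groups, and day 17 stood at 1.95 ± 0.40 (adjusted p 3.57e-04). The gene shares 371 exon bases with kqt-1 on the other strand, which went from 1.83 to 14.8 CPM (3.02). For clec-78, whose annotated span on chromosome IV (3989102 to 4014235, plus strand) holds other genes with no shared exon, day 1 held 2.64, 2.2 and 1.8 CPM and day 6 held 0.96, 0.885 and 0.913 CPM. It then held 8.6, 11.9 and 17.3 CPM at day 11, 12.9, 20.7 and 29 CPM at day 15 and 9.05, 15.8 and 18.3 CPM at day 17. It fell at day 6 (-1.27) and was higher at day 17 (2.70 ± 0.395, adjusted p 6.06e-06).

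The remaining rises at day 17 were of weaker genes. For clec-264 (chromosome V, 20847702 to 20850701, minus strand) the level went from 4.26, 5.15 and 2.55 CPM to 13.6, 27.5 and 19.2 CPM (2.33 ± 0.457, adjusted p 1.98e-04). In clec-142 the rise was 1.55 ± 0.215, and it had been reached by day 6 (1.98). In clec-140 it was 2.83 ± 0.43, from 0.125, 0.268 and 0.0363 CPM to 0.722, 1.14 and 1.23 CPM. On the same strand, hmg-11 overlaps 20.8% of the clec-140 exon bases and T05A7.3 overlaps 17.4%. Both of these genes are listed at 0, so reads there may not have been assigned. The rise of clec-74 (2.18, adjusted p 0.027) lost its call without replicate 1 or 2 of day 1 or replicate 3 of day 17, with adjusted p up to 0.107.

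**Figure D4:**
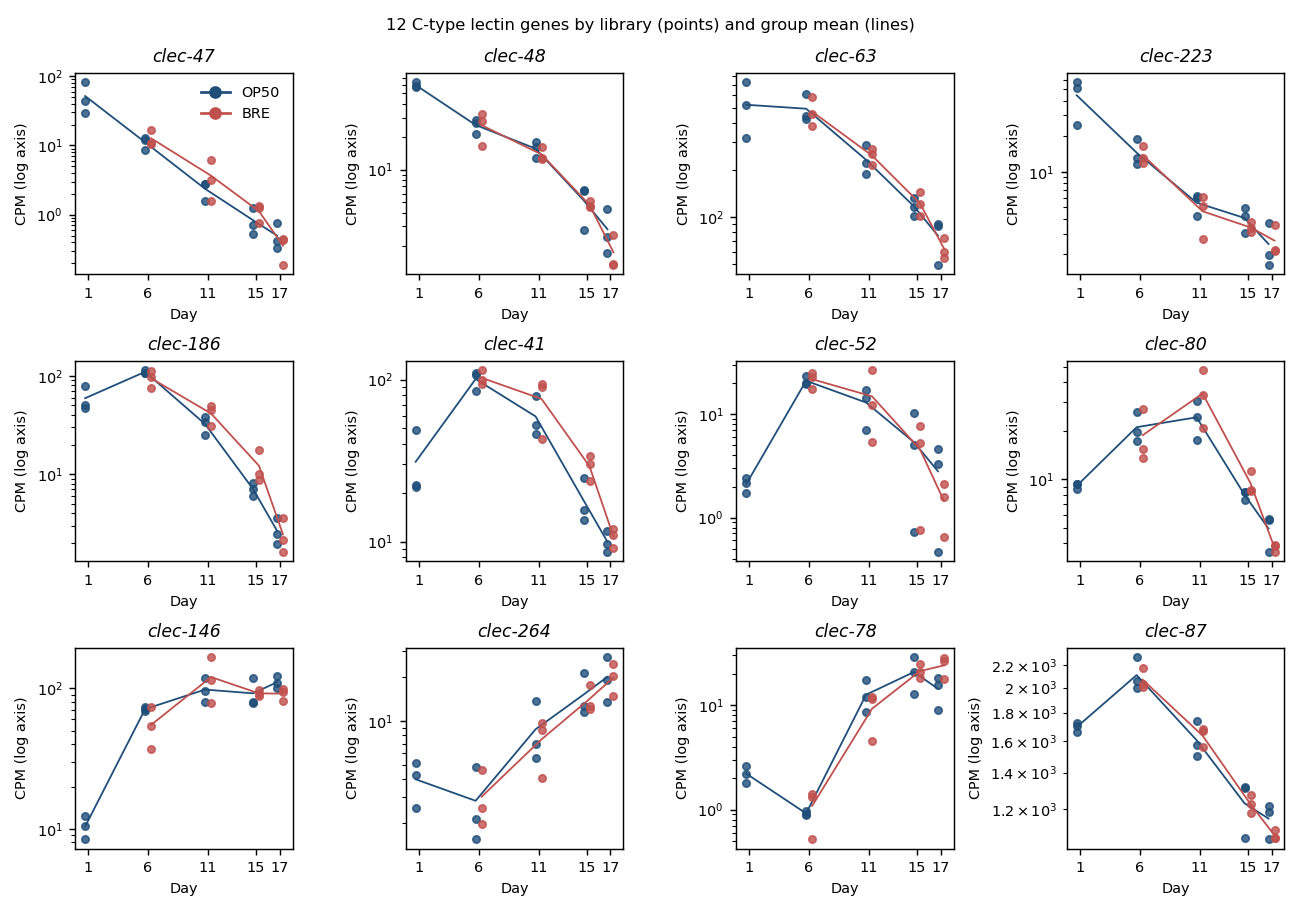
Level of 12 C-type lectin genes (y axis, CPM on a log axis) by day (x axis), with libraries as points and group means as lines, blue for OP50 and red for BRE. The panels of clec-47, clec-48, clec-63, clec-223 and clec-186 fall to day 17, clec-146, clec-264 and clec-78 end above day 1, and clec-41 and clec-80 rise by day 6 before they fall. In clec-52 the replicates of a group lie far apart from day 15 on.

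Several lectins rose by day 6 and fell again. The largest rises whose groups did not overlap and reached 1 CPM were those of clec-52, clec-60, clec-82 and both IDs of clec-209. For clec-52 (chromosome IV, 8167164 to 8168760, minus strand) the level went from 2.18, 1.72 and 2.42 CPM at day 1 to 23.6, 20.3 and 19.7 CPM at day 6 (3.33 ± 0.89, adjusted p 0.00696). Its day 17 libraries held 0.462, 3.30 and 4.67 CPM, which overlap day 1. Like clec-52, clec-60 belongs to the known response to Staphylococcus aureus (chromosome II, 10480043 to 10481874, minus strand). It went from 0.0538, 0.259 and 0.0363 CPM to 1.89, 0.862 and 0.761 CPM (3.30 ± 0.67) and was still higher at day 17 (2.45 ± 0.657, adjusted p 0.00342), at 3.87 without replicate 2 of day 1. In clec-82 the rise was 3.02 ± 0.365 at day 6 and 1.48 at day 17.

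Reads of the 2 IDs named clec-209 may be split between near copies, so they were added up. Taken singly, the ID WBGene00021224 lost its call at day 6 without replicate 1 (adjusted p 0.0667) or 2 (adjusted p 0.0656) of day 1 or replicate 2 of day 6 (adjusted p 0.0537). Together they held 1.21, 1.397 and 1.816 CPM at day 1, 10.46, 16.58 and 8.852 CPM at day 6 and 0.5016, 0.2763 and 3.078 CPM at day 11. At day 15 they held 0, 0.0128 and 0.2536 CPM, and at day 17 no library had a count, where 3 counts over the group would be 0.00804 CPM. Day 6 was thus the high point, and the symbol was undetected at day 17 on OP50.

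Among more abundant lectins, a rise at day 6 and a fall at day 17 were both called for clec-41, clec-50, clec-62, clec-65, clec-80, clec-173, clec-186, clec-190 and clec-87. In clec-41, a gene with a role in defence against Bacillus thuringiensis, day 1 held 22.5, 21.8 and 49 CPM, day 6 held 84.9, 107 and 110 CPM and day 17 held 9.64, 11.6 and 8.60 CPM. The 3 days did not overlap. The log2 difference was 1.697 ± 0.308 at day 6 and -1.64 at day 17, and the latter was -1.07 without replicate 3 of day 1. At day 6 the log2 difference was 1.57 in clec-190, 1.56 in clec-62, 1.21 in clec-80, 1.20 in clec-173, 1.01 in clec-50 and 0.94 in clec-65. The largest falls at day 6, beside clec-70, were those of clec-4 (-3.46), clec-265 (-2.99), clec-51 (-2.35) and clec-47 (-2.22).

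At days 11 and 15 the list of largest changes gained a few weak genes. The largest rise at day 11 was clec-76, from 0.0448, 0.0167 and 0.127 CPM at day 1 to 2.02, 1.19 and 2.28 CPM (4.86 ± 0.46), followed by clec-9 (3.98 ± 0.73). At day 15 clec-151 (4.47 ± 0.71) and clec-73 (3.74 ± 0.91) led. Replicate 3 of day 15 held the highest level of both, 2.11 CPM of clec-151 and 2.38 CPM of clec-73, and without that library their log2 differences were 3.45 and 2.61. That library also held the most transcript of 34 sperm markers, 101.3 CPM, where the other 2 of its group held 8.795 and 18.25 CPM. The part of sperm transcripts in these 2 rises was not tested.

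Between neighbouring days the early steps were mixed and the later ones downward. From day 6 to day 11, 36 of the 174 members changed, 18 in each direction, beside 16.4% of all genes, of which 12.6% were higher and 3.81% lower. The smallest p values belonged to clec-78 (3.78, adjusted p 1.4e-06), 1 ID of clec-209, clec-53 (-3.17), clec-186 (-1.76), clec-65 (-1.20) and clec-76 (2.02). Among the 63 members with at least 1 CPM, 16 fell and 5 rose in this step, beside 5.75% and 10.3% of all genes at that level. With a replicate block the count over all tested members was 49, beside 38.1% of all genes.

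From day 11 to day 15, 28 members changed and all 28 fell, where 5.81% of all genes were called, 3.03% higher and 2.78% lower. The smallest p values were those of clec-173, clec-1, clec-186, clec-62, clec-86 and clec-50. In clec-173 the libraries of day 11 held 56.5, 42.4 and 60.4 CPM and those of day 15 held 15.1, 16.9 and 14.8 CPM, after days 6 and 11 at about the same level. Its log2 difference was -1.77 ± 0.199 (adjusted p 1.6e-05). In clec-1 it was -2.22, in clec-186 -2.19, in clec-86 -1.94, in clec-50 -1.63 and in clec-62 -1.34. The count was 16 without replicate 3 of day 11, 17 without replicate 1 of day 15 and 16 without the 4 libraries richest in sperm transcripts, with none higher in any of these, beside 3.11%, 3.51% and 2.06% of all genes called in either direction. Of the 63 members with at least 1 CPM, 23 fell and 0 rose, beside 4.33% and 3.41% of all genes at that level, and 15 fell without the sperm-rich libraries. A replicate block raised the count over all tested members to 38, beside 20.3% of all genes.

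From day 15 to day 17 edgeR called no member, and 0% of all genes. At an unadjusted p under 0.05 there were 36 members, or 20.7%, where 7.58% of all genes stood. DESeq2 called 11, beside 0.703% of all genes to which it gave an adjusted p. The 2 days did not overlap for 35 members that were lower at day 17 and 4 that were higher, beside 5.56% and 5.42% of all genes. The smallest p values were those of clec-218 (-1.88), clec-186 (-1.41), clec-7 (-1.69) and clec-36 (-1.91), with a smallest adjusted p of 0.146. Of the 63 members with at least 1 CPM, 12 were above 0, where 45.2% of all genes at that level were, and their median log2 difference was -0.62. Without replicate 2 of day 17 edgeR called 5 members, beside 0.38% of all genes. For clec-7 the difference was -1.01 without the 4 sperm-rich libraries.

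A list of 16 lectins named in studies of bacterial infection shifted from mixed to mainly lower, and the list was drawn up with earlier results of these data known. All 16 were tested. Against day 1, 4 rose and 4 fell at day 6 and again at day 11, 3 rose and 8 fell at day 15, and 2 rose and 8 fell at day 17. Of all genes 13.9% rose and 18.9% fell at day 6, and 19.2% rose and 16.4% fell at day 11. The shares were 26% and 21.1% at day 15, then 29.2% and 24.7% on the last day. The median log2 difference of the 16 was 0.19 at day 6 and -1.36 at day 17, where the median of all genes was -0.10 and 0.10. Their summed level was 112 to 166 CPM at day 1, 121.8 to 133.7 at day 6, 54.62 to 79.12 at day 11, 22.53 to 42.96 at day 15 and 14.64 to 21.96 at day 17. Thus day 17 lay below day 15, which lay below day 11, without overlap.

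The 2 that were higher at day 17 were clec-60 and clec-42, the latter known from the response to Bacillus thuringiensis. In clec-42 the level was 0.0179, 0.0167 and 0.0363 CPM at day 1 and 0.101, 0.268 and 0.142 CPM at day 17 (2.81 ± 0.64, adjusted p 7.6e-04). Among the lower, clec-49, which acts in defence against Serratia marcescens, held 12.5, 9.03 and 14.6 CPM at day 1 and 0.336, 1.04 and 0.352 CPM at day 17. The groups lay far apart, with a log2 difference of -4.38 ± 0.51 (adjusted p 2.7e-07). Its functional partner in studies of that bacterium, clec-39, stayed under 0.1 CPM in every OP50 library and was not called (0.73, from 0.21 to 1.56 when single libraries were left out).

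The other lower genes of the list were clec-4 (-3.24), clec-7, clec-47, clec-65, clec-66 (-3.02), clec-70 and clec-86 (-2.01). Not called at day 17 were clec-17, clec-29, clec-39, clec-52 (0.42), clec-61 (0.96) and clec-71 (-0.79, adjusted p 0.097). Without replicate 2 of day 17, clec-71 was called (-1.18, adjusted p 0.0301) and clec-61 stood at 0.25, and without replicate 1 of day 17 clec-71 stood at -0.40. The value of clec-61 was 0.43 without replicate 2 of day 1. Induced by Microbacterium nematophilum, clec-61 held 0.0179, 0 and 0.0182 CPM at day 1 and 0.724, 0.154 and 0.180 CPM at day 6. That rise was called (adjusted p 5.1e-04), at levels where 2 of the 3 day 1 libraries had a trace and the other had none.

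Genes upstream of the lectins and the other lectin family were read from lists of the same kind. Of 23 genes of immune signalling, 7 rose and 4 fell at day 17, beside 29.2% and 24.7% of all genes. The rises included the adaptor tir-1 (2.54) and its kinases sek-1 (0.56) and pmk-1 (0.42), the MAP kinase phosphatase vhp-1 (2.07), the transcription factors zip-2 (0.58) and egl-5 (1.55) and the nuclear receptor nhr-86 (0.90). The falls were of the kinase nsy-1 (-0.82), the transcription factor atf-7 (-0.66), the receptors fshr-1 (-1.65) and sma-6 (-0.99). Among 12 galectins, which bind beta-galactosides and are not related to the C-type fold, 3 rose and 7 fell beside the same shares, with lec-9 at -3.49, lec-10 at -2.11 and lec-11 at -1.79. Without scaling between libraries every one of these differences would be 0.48 higher.

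The members were spread unevenly over the genome, with 86 on chromosome V, 51 on IV, 48 on II, 36 on I, 14 on III and 3 on X. Chromosome V held 36.13% of members beside 16.77% of all genes in the table, II 20.17% beside 11.15% and I 15.13% beside 8.957%. The shares were lower than those of all genes on IV (21.43% beside 41.99%), III (5.882% beside 8.224%) and X (1.261% beside 12.83%). All genes here include types other than protein coding, which the members do not. By position, 97 of them lay in 19 clusters of at least 3 members with gaps of at most 10 kb. The cluster with the most tested members lies on chromosome V at 16839121 to 16869840 in WBcel235 and holds 13 members, of which 12 were tested, all at low levels. At day 17, clec-24 (1.82), clec-35 (1.32) and clec-40 (2.06) were higher, and clec-22 (-2.20), clec-26 (-3.74), clec-28 (-2.05), clec-31 (-2.33) and clec-36 (-2.23) were lower. Values not called were -2.19 for clec-27, 0.49 for clec-25, 2.76 for clec-32 and 0.38 for clec-33. Without replicate 3 of day 1, clec-22 stood at -0.68 and was no longer called, and clec-32 stood at 4.88. Without replicate 2 of day 1, clec-40 stood at 3.80, clec-24 at 2.79, and clec-27 was called (-2.49, adjusted p 0.0487). With the compared groups alone, clec-22 (adjusted p 0.0937), clec-24 (0.106) and clec-40 (0.0857) were not called. The call of clec-35 was lost with no filter (adjusted p 0.0511) and without replicate 1 (0.0585) or 3 (0.0886) of day 1 or replicate 2 (0.148) or 3 (0.0858) of day 17.

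Directions were thus mixed within that cluster, and others were more uniform. The cluster of clec-62 to clec-66 on chromosome II (12893062 to 12906644), which holds the abundant clec-63, had 4 of 5 members lower at day 17 and none higher. A cluster of 5 on chromosome V (14469231 to 14482317) had 4 lower and none higher. Of all genes, 24.7% were lower at day 17 and 29.2% higher. Other clusters had rises only. Those of clec-136 to clec-139 and of clec-228 to clec-231, all weak genes, each had 2 of 3 tested members higher and none lower. By contrast, the 10 members of a cluster on chromosome IV (3926417 to 3975721), clec-70 among them, ran from -6.38 to 3.30, with 3 higher and 3 lower. The genes clec-136 to clec-139 overlap pqn-35 on the other strand, with no shared exon. From day 1 to day 17 pqn-35 rose by 2.34, from 3.43 to 17.4 CPM. The part of pqn-35 reads in the rises of that cluster was not tested.

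Between black rice extract and OP50 edgeR called no lectin gene at any day, and most single-day intervals were too wide to bound a difference within 2-fold. At day 6 there was no called member beside 0.0156% of all genes, at day 11 none beside 0.0104%, at day 15 none beside 0% and at day 17 none beside 0%. The average of the 4 days had none beside 0.0415%, and the test of whether the days differ had none beside 0%. At an unadjusted p under 0.05 there were 5 members at day 6 (2.87%, against 2.36% of all genes), 5 at day 11 (2.87%, against 2.5%), 15 at day 15 (8.62%, against 2.83%) and 12 at day 17 (6.9%, against 8.01%). In the average there were 13 (7.47%, against 3.57%) and in the difference between days 9 (5.17%, against 2.9%). DESeq2 called 2 members at day 15 (0.253% of all genes) and 1 in the average (0.121%), and 0 in the other BRE comparisons.

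The direction of the small differences varied by day. Of the 63 members with at least 1 CPM, 22 were above 0 at day 6, 53 were at day 11, 45 at day 15, and 23 on the last day, where 37.6%, 57.9%, 53.9% and 49.3% of all genes at that level were above 0. The count at day 11 rested in part on 1 library. Without replicate 3 of BRE at day 11, a choice made after seeing the data, 38 of the 63 were above 0 (46% of all genes) and their median log2 difference went from 0.24 to 0.04. In that library the lectin sum without the 5 most abundant was 1315 CPM, where the group's lowest was 783.2 CPM, and oocyte markers summed to 10010 CPM, the lowest of its group. The part of the latter in these values was not tested. At day 15, 14 members were higher without overlap and 4 lower, beside 3.82% and 1.87% of all genes, and at day 17 it was 14 and 9, beside 7.64% and 5.42%.

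For the abundant lectins, the averaged difference was bounded closely. The approximate 95% interval of the log2 difference ran from -0.13 to 0.08 for clec-87, -0.09 to 0.15 for clec-88, -0.29 to 0.20 for clec-63 and -0.24 to 0.05 for clec-91. For clec-266 it ran from -0.38 to 0.38 and for clec-146 from -0.31 to 0.14. Of the 63, 56 had an averaged interval inside 2-fold (88.9%). Over all tested members it was 125 of 174 (71.8%). For weak members whose averaged difference is near 0 the interval is unreliable. It ran from -0.06 to 0.06 for clec-33 and from -273.09 to 273.19 for clec-217. The count of 125 is thus approximate. On single days the interval lay inside 2-fold for 35.3% of tested members on day 6, 26.4% on day 11, 28.7% on day 15 and 29.3% on the last day. Of the 63, it held on single days for 49 (day 6), 36 (day 11), 41 (day 15) and 41 (day 17). For the rest the interval reached 2-fold or beyond, so a difference of that size was not bounded. The intervals of clec-53 at day 15 (1.37 to 3.6) and clec-3 at day 17 (1.17 to 3.71) lay wholly above 2-fold, though edgeR called neither.

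**Figure D5:**
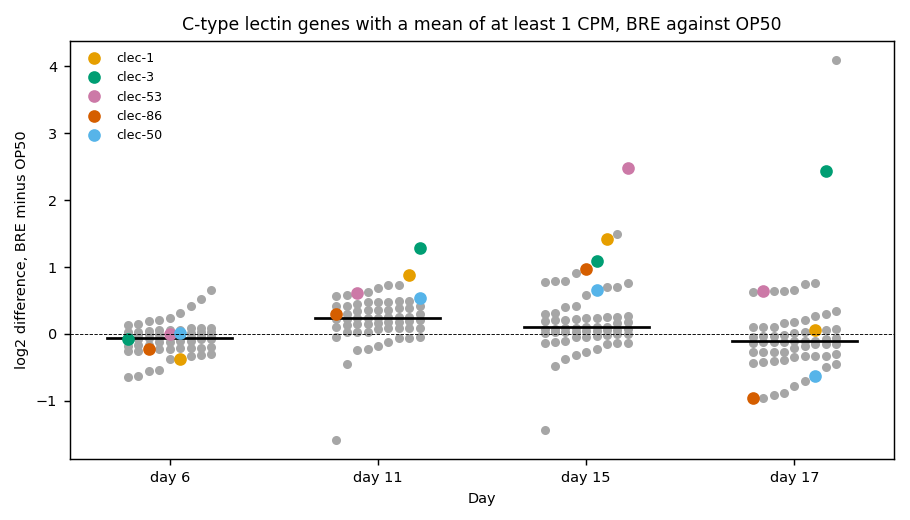
Log2 difference of BRE minus OP50 (y axis) at days 6, 11, 15 and 17 (x axis) for the 63 members with a mean of at least 1 CPM. Each point is a gene, black bars are medians, and 5 genes are coloured. The medians lie near 0, at -0.06, 0.24, 0.10 and -0.10, clec-1 and clec-53 stand high at day 15 and clec-3 at day 17, and the highest point at day 17 is 1 ID of clec-209, for which OP50 had no count.

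The smallest p of any lectin on a single day was that of clec-1 (chromosome V, 5700154 to 5701080, plus strand) at day 15. Its level fell with age on OP50, from 69.8, 72.2 and 71.1 CPM at day 6 to 28.6, 22.9 and 29.7 CPM at day 11, 4.41, 7.01 and 6 CPM at day 15 and 7.8, 5.54 and 5.72 CPM at day 17. On BRE it was 65, 40.9 and 59.1 CPM at day 6, 25.6, 58.9 and 65.3 CPM at day 11, 18.9, 16.6 and 11.2 CPM at day 15 and 5.19, 9.34 and 5.33 CPM at day 17. At day 15 every BRE library lay above every OP50 library, and at day 6 every one lay below. The log2 difference was 1.42 ± 0.293 at day 15 (unadjusted p 7.2e-05, adjusted p 0.203) and 0.88 ± 0.287 at day 11 (adjusted p 1). It was -0.37 at day 6, 0.06 at day 17 and 0.50 in the average. DESeq2 gave an adjusted p of 0.00214 at day 15.

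The rule also named clec-53 and clec-3, each with a single-day difference above 2 on the log2 scale at very low levels. Other weak members exceeded 2 as well, such as clec-230 at day 15 (2.72) and clec-117 at day 6 (2.62). In clec-53, BRE held 0.537, 0.153 and 0.0885 CPM at day 15 and OP50 held 0, 0.0768 and 0.0507 CPM, with no overlap (2.49 ± 0.568, adjusted p 0.203). Without replicate 1 of BRE the difference was 1.38, and DESeq2 gave an adjusted p of 0.00459 over all libraries. In clec-3, BRE held 0.17, 0.534 and 0.33 CPM at day 17 and OP50 held 0.084, 0.0705 and 0.037 CPM, with no overlap (2.44 ± 0.648, adjusted p 0.58). The averaged difference of clec-3 was 1.18 ± 0.293 (unadjusted p 5.25e-04, adjusted p 0.483), and DESeq2 gave an adjusted p of 0.0222. At day 11 its difference of 1.28 was 0.36 without replicate 3 of BRE.

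In clec-86 (chromosome X, 7139875 to 7140566, plus strand) the sign turned between days. At day 15, BRE held 0.559, 1.14 and 0.856 CPM and OP50 held 0.485, 0.448 and 0.377 CPM, and at day 17 BRE held 0.176, 0.223 and 0.184 CPM and OP50 held 0.479, 0.388 and 0.278 CPM. Neither day overlapped. The differences were 0.96 ± 0.312 (adjusted p 0.795) and -0.96 ± 0.325 (adjusted p 0.58).

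The other members that the rule named had adjusted p values between 0.58 and 1. At day 6 these were clec-39 (-2.57), clec-126 (1.09), clec-263 and clec-137, the last 2 with no count in OP50. At day 11 they were clec-76 (-0.85) and clec-27 (2.07, or 1.34 without replicate 1 of BRE and 0.85 without the sperm-rich libraries), at day 15 clec-190 (0.91, 7.051 against 3.757 CPM) and at day 17 clec-28 (1.44) and clec-26 (1.81, or 2.77 without replicate 2 of OP50). The average of the 4 days held clec-76 at -0.62 ± 0.19 (unadjusted p 0.00342, adjusted p 0.97). In the test of a difference between days, clec-50 stood at 0.54 at day 11, 0.66 at day 15 and -0.64 at day 17. No gene of the infection list was called on BRE, with medians from 0.09 at day 6 to 0.35 at day 11, and none of the signalling or galectin lists was.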

How the data were processed

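RNA of whole N2 worms was sequenced in 27 libraries on a DNBSEQ-T7 after MGIEasy preparation from 1 µg of total RNA, per the labels. The authors deposited raw counts per gene, with no normalization. HISAT2 2.0.5, featureCounts, SAMtools 1.7, Trimmomatic and FastQC are named in the submitters' processing notes. The sources used here do not give their parameters, the strand setting, the genome build or the annotation, and gene coordinates were looked up in the WBcel235 annotation. Even numbers made up 54.5% to 68.9% of counts from 1 to 20, and read pairs may thus have been counted as 2. Symbols came from the gene name table, and every column matched 1 library by diet, day and replicate.

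In R 4.3.3, edgeR 4.0.16 (with limma 3.58.1) fitted 9 group means to all 27 libraries by quasi-likelihood, with TMM scaling and filterByExpr (minimum count 10), and p-values were Benjamini-Hochberg adjusted over 19290 genes. The SE is the size of the log2 difference divided by the root of F, and 95% intervals take 1.96 SE. Each p with an adjusted value comes from this fit unless DESeq2 1.42.0, an alternative, is named. The fit was tested on simulated data. Nothing in the labels says which cultures were separate beyond calling the libraries biological replicates, so p-values measure the spread between these libraries. Alternatives were RLE scaling, no filter, the compared groups alone, a replicate block, DESeq2, each library left out, and 2 choices made after seeing the data.

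Same-numbered libraries deviated together, each of the 3 correlations over 0.1, for BRE and OP50 at day 6 (0.22, 0.19 and 0.31) and day 11 (0.50, 0.41 and 0.22) and for OP50 days 6 and 11 (0.30, 0.15 and 0.23). For those comparisons the numbers were taken to pair the samples. The main fit holds no such pairing, so its counts, SE and p-values there ignore it. Counts of called members with a replicate block are given separately. Copies of a library were looked for and none found.

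The members and lists were chosen with earlier results of these data known. The named genes are, among called members with a log2 difference of at least 1, groups that reach 1 CPM and do not overlap, the 8 largest rises and 8 largest falls at day 17, and 5 of each for other days against day 1. Added were the 6 smallest p of each step and, where none was called, the 4 smallest, the 8 most abundant per kb, the infection list, and the cluster with the most tested members. Some genes were named after their values were seen. These are the members with a mean of at least 10 CPM over the 27 libraries, given for day 17. The 4 smallest p of the averaged BRE difference and the other genes described are also among them.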

Additional observations from a re-analysis of the deposited data

Results flagged for a closer look

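In clec-1, BRE was below OP50 in every library at day 6 (log2 difference -0.37) and above it in every library at day 15 (1.42). The day 6 difference less that of day 15 was -1.79. The joint edgeR test over the 4 days gave an unadjusted p of 9.65e-04 and an adjusted p of 1. In clec-173 the same pair of days had opposite directions without overlap, at -0.10 and 0.41, a difference of -0.51 with an unadjusted p of 0.129 and an adjusted p of 1. In clec-86, BRE was above OP50 in every library at day 15 and below it in every library at day 17, a difference of 1.93 with an unadjusted p of 0.00217 and an adjusted p of 1. None of these 3 passed the adjustment over all genes. They were picked from all tested members because BRE and OP50 did not overlap, in opposite directions, on a pair of days. The p-values are thus those of genes chosen by that pattern. How many of all genes show it was not counted.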

How the results depend on the processing

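Counts of called members stayed within 1.5 times of the count given under the alternatives run for each comparison, except as follows. From day 15 to day 17, where 0 were called, the replicate block gave 1 (clec-218, adjusted p 0.0288), DESeq2 gave 11 and leaving out single libraries gave 0 to 5. From day 11 to day 15, leaving out single libraries gave 16 to 25 in place of 28, and leaving out the 4 sperm-rich libraries gave 16. For BRE, DESeq2 called 2 at day 15 (clec-1 and clec-53) and 1 in the average (clec-3) in place of 0. The share of all genes called moved further with the replicate block. From day 6 to day 11 it went from 16.4% to 38.1%, beside 36 and then 49 members. From day 11 to day 15 it went from 5.81% to 20.3%, beside 28 and then 38 members.

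Same-numbered libraries did not deviate together between day 17 and day 1. With a replicate block 88 members were called there, beside 43.3% of all genes. The calls of clec-22, clec-24, clec-87, clec-88, clec-91 and clec-266 (adjusted p 0.142) were lost. The block changed no other call at day 17 of a gene named. At day 15 it lost clec-151, and in the step from day 11 clec-50. In the paired comparisons it gave 49 calls from day 6 to day 11, beside 38.1% of all genes. For BRE it gave 0 at day 6, beside 0.0259% of all genes, and 0 at day 11, beside 0.0156%.

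Mean lectin sums on the unnormalized library total were 3341, 4473, 3783, 2994 and 2885 CPM for OP50 at days 1, 6, 11, 15 and 17, and 4374, 4072, 3093 and 2606 CPM for BRE at days 6, 11, 15 and 17. The sign of 6 uncalled differences from day 1 to day 17 turned. For clec-150 it was 0.009 with RLE scaling, 0.009 with DESeq2 and 0.131 without the sperm-rich libraries. On leaving out single libraries clec-150 ran from -0.203 to 0.130, clec-17 from -0.493 to 0.967, clec-33 from -0.020 to 0.829, clec-90 from -0.099 to 0.063, clec-25 from -0.066 to 1.803 and clec-52 from -0.140 to 1.006. The cause was not tested. The 64 untested members and those under 1 CPM are limited by their low counts.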

Other observations

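Replicate 1 had the lowest level of clec-52 in all 6 groups of days 11, 15 and 17. On OP50 the 3 replicates held 7.14, 14.6 and 17.5 CPM at day 11, 0.717, 5.04 and 10.4 CPM at day 15 and 0.462, 3.30 and 4.67 CPM at day 17. On BRE they held 5.37, 12.4 and 27.2 CPM at day 11, 0.758, 5.28 and 7.72 CPM at day 15 and 0.651, 2.10 and 1.59 CPM at day 17.

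At day 1, replicate 3 held 2.81 CPM of clec-196, where the other 2 libraries held 18.3 and 18.5 CPM.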
